A study of Mus musculus with 10 samples.

Results

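Delta cells and beta cells of the mouse pancreatic islet were compared gene by gene, using RNA sequencing of cells sorted by fluorescence. The comparison rests on 2 delta libraries and 5 beta libraries of the 10 libraries in the study, and on the 12373 of 19213 listed genes that reached 1 RPKM (a read count divided by gene length and by library size) in at least 2 of these 7 libraries. The genes were admitted by level alone. A gene present only in delta cells had to pass in both delta libraries, and 1 present only in beta cells in any 2 of 5. Delta replicate 1 and beta replicates 1 and 3 came from male mice, and delta replicate 2 and beta replicates 2, 4 and 5 from female mice. Beta replicates 4 and 5, both female, carry the same library number 12 in their titles with different index sequences, as alpha replicates 1 and 2 carry number 9, and the labels do not say whether such libraries share a source. All 7 libraries came from adult animals carrying 3 transgenes. Beta cells were sorted by a nuclear mCherry fused to histone H2b under the mouse Ins1 promoter, and delta cells by a YFP from a floxed allele switched on by Sst-Cre. Some beta libraries may come from islets in which Gcg-Cre in place of Sst-Cre drove the YFP, because the labels do not name the Cre of each beta library. For each sample, islets from 10 to 12 mice of the same sex were combined, kept overnight in medium with 5.5 mM glucose and 10% serum, and dissociated the next morning. A Cre-driven label stays on in any cell in which the Cre was once active, so the YFP marks a history of Sst-Cre activity and not present somatostatin. The remaining 3 libraries, of alpha cells marked by Gcg-Cre and the same floxed YFP, are used here only for the spread of the fit and as a reference level.

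Somatostatin from delta cells acts on neighbouring cells through somatostatin receptors and restrains the release of insulin and glucagon. Beta cells make insulin, and in the mouse they also release urocortin 3, which acts on delta cells through the receptor encoded by Crhr2. Both cell types descend from endocrine progenitors that pass through a Neurog3-positive stage. They share an electrically excitable membrane with ATP-sensitive potassium channels, regulated granule release and a set of islet transcription factors. Hhex is a homeobox factor needed for delta cell identity, and Mafa, Nkx6-1 and Pdx1 are regulators of the mature beta cell.

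The 4 defining genes separated the 2 sorts with no overlap. Sst, which encodes somatostatin (chromosome 16, 23889573 to 23890958, minus strand, GRCm38), stood at 52388 and 60769.7 RPKM in delta replicates 1 and 2 and at 99.6, 200.4, 353, 535 and 922 RPKM in beta replicates 1 to 5. Hhex (chromosome 19, 37434810 to 37440731) was listed at 193 and 193 RPKM in delta cells and 0.345, 0.786, 0.922, 1.24 and 2.67 RPKM in beta cells. Ins2, 1 of the 2 mouse insulin genes (chromosome 7, 142678656 to 142743381), had 2124 and 2998 RPKM in delta cells against 363484, 252913, 239550.2, 214339 and 177833 RPKM in beta cells. Ucn3, the urocortin 3 gene (chromosome 13, 3940688 to 3945349), had 2.85 and 3.79 RPKM in delta cells against 359, 426, 285, 204 and 222 RPKM in beta cells. The Sst level of the beta libraries was lowest in beta replicate 1 and highest in beta replicate 5. On the scale of log2(RPKM + 1), used for every difference below and counted as delta minus beta, the estimates were 7.51 ± 0.70 (standard error) for Sst, 6.58 ± 0.36 for Hhex, -6.61 ± 0.30 for Ins2 and -6.08 ± 0.27 for Ucn3. Adjusted p-values were 2.82e-05, 7.61e-07, 2.59e-07 and 2.03e-07.

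The 250 bases before the start of transcription are shown for 5 genes that mark the contrast, namely the hormone, factor and receptor genes Sst, Hhex and Ghsr of delta cells and the genes Ucn3 and Ffar1 of beta cells. The sequences are from RefSeq on GRCm38.p6, run 5′ to 3′ on the strand of the gene and end at the base before the RefSeq start. For Sst and Hhex this start lies inside the gene span printed above, which is from GENCODE. Positions before the start are counted from the RefSeq start. Ins2 has no entry. Capitals mark 3 motifs searched on both strands: the cyclic AMP response element TGACGTCA, the E-box CATCTG known from insulin promoters, and TGCTGA, a part of the site bound by large Maf factors.
Sst (chr16:23890845-23891094, minus strand): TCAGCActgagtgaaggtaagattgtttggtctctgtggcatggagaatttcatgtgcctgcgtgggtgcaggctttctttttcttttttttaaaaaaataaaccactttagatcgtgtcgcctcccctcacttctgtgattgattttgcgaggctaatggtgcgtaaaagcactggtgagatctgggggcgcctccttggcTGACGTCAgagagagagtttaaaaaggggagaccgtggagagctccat
Hhex (chr19:37434591-37434840, plus strand): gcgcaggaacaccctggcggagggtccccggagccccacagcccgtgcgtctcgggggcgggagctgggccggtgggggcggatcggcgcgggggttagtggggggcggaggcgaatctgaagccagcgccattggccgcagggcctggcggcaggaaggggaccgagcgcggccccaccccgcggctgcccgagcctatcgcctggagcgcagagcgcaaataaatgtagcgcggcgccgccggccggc
Ghsr (chr3:27371101-27371350, plus strand): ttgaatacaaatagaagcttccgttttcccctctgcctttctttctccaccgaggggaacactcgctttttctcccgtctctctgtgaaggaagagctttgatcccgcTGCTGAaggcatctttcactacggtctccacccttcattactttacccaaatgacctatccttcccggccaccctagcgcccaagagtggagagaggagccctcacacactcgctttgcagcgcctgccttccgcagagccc
Ucn3 (chr13:3945350-3945599, minus strand): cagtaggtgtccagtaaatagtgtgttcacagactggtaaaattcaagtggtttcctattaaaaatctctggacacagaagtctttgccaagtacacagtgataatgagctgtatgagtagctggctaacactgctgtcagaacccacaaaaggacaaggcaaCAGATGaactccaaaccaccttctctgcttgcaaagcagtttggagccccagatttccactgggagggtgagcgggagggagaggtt
Ffar1 (chr7:30861471-30861720, minus strand): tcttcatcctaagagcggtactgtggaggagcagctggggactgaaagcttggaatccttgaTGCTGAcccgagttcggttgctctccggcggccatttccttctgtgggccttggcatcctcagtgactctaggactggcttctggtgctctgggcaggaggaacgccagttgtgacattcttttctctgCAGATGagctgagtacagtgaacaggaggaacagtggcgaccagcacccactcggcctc
The Sst window holds TGACGTCA starting 48 bases before the start, a motif present in 1.62% of the 27025 windows of this length in the RefSeq table (the first listed start of each gene) and in 2.94% of the 9264 that belong to tested genes, and TGCTGA on the other strand at its far end. CATCTG was found on the reverse strand 87 bases before the start of Ucn3 and 59 bases before that of Ffar1, and in 14.5% of all windows and 9.45% of those of tested genes. TGCTGA, present in 15.8% of all windows and 12.2% of those of tested genes, was also found in the Ghsr and Ffar1 windows, and no match of the 3 motifs was found in that of Hhex. The windows also differ in CG pairs, of which Hhex has 32 and Ucn3 has 1. Windows of further genes were searched and are not shown. None of the motifs was found for Ffar4, for Mest or at the first listed start of G6pc2. The second listed start of G6pc2 had CATCTG and TGCTGA.

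Markers of other cell types were measured in both sorts, and whether they come from other cells or from the sorted cells was not tested. The 10 alpha cell markers summed to 22135 and 24222 RPKM in delta libraries, to 755 to 3088 RPKM in beta libraries and to 250240 to 280044 RPKM in alpha libraries. By Gcg, the glucagon gene, delta libraries stood at 8.33% and 9.11% of the alpha mean and beta libraries at 0.182% to 1.12%. Markers of PP and epsilon cells, led by Ppy and Pyy, summed to 44167 and 44801 RPKM in delta libraries and to 809 to 1560 RPKM in beta libraries. Acinar markers ranged from 255 to 12549 RPKM in beta libraries and were 935 and 1183 RPKM in delta libraries. Sums of 15 immune markers were 76.7 and 90.0 RPKM in delta against 131 to 255 RPKM in beta cells, with Lyz2 and Tyrobp listed at 0 in both delta libraries. Of the 12 immune markers tested, 11 were lower and 1 was higher in delta cells at an adjusted p under 0.05 (limma). Over all genes tested 13.7% were lower and 37.6% higher. The sums include the higher marker, so they do not give the level of the 11 lower ones. Sums for endothelial markers were at most 11 RPKM in delta and 11.5 RPKM in beta libraries, and those of stellate markers at most 9.71 and 6.15 RPKM. Schwann cell markers summed to 10.1 and 10.3 RPKM in delta and to 2.32 to 2.92 RPKM in beta libraries, and duct markers to 528 and 621 RPKM against 697 to 959 RPKM. Beta replicate 5 carried the largest delta signal of the beta libraries, with 1025 RPKM over the 7 delta markers against 161 to 612 RPKM in the other beta libraries. Library totals lay between 17800000 and 26700000 reads in these 7 libraries.

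In all, 6343 of the 12373 genes differed at an adjusted p under 0.05 (51.3%), 4654 of them higher in delta cells (37.6%) and 1689 lower (13.7%). With the libraries that share a number averaged to 1 sample, 4509 were higher and 1619 lower. A difference of at least 2-fold was found for 1547 genes higher (12.5%) and 489 lower (3.95%). The numbers thinned from 128 higher and 60 lower at 8-fold or more to 5 higher and 4 lower at 64-fold or more. Folds in these counts, here and below, are of RPKM + 1, which understates the ratio of genes low in 1 type. Hgf, with a delta mean 145 times the beta mean, differed by 2.83 on the log2 scale and is not among the 128. RPKM are shares of a library, and the balance of the calls moved with the scaling. As deposited, the median difference over the 12373 genes tested was 0.25 and 73.4% of the called genes were higher in delta cells. The median also moved with the genes and libraries used, to 0.09 with no filter on low values and to 0.35 against beta replicates 1 and 2 alone. After median-ratio scaling the median was 0.01 and 50.6% of calls were higher, with 3137 genes higher and 3064 lower. Scaling to the RPKM outside 7 hormone genes gave a median of 0.18, with 4073 genes higher and 1983 lower. Differences near 0.25 are therefore differences from 0 only on the deposited scale. Of the genes called with at least a 2-fold difference, 1524 of 1547 higher and 489 of 489 lower were called in the same direction after median-ratio scaling. This scaling divided the delta libraries by 1.2 and 1.17 and the beta libraries by 0.859 to 1.06. It therefore moves each gene down in delta cells, and the direction of the 489 lower genes could not change.

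The beta libraries numbered 16 and 20 in their titles (replicates 1 and 2) neighbour the delta libraries 17 and 21, and gave a check inside each sex. With these alone as the beta group, 1544 of the 1547 genes higher and 478 of the 489 genes lower by 2-fold were called in the same direction. The same delta and beta libraries were also in the fit that chose those genes, so the agreement is not independent of it. The male pair differed by 2-fold or more at 3571 genes, the female pair at 2545 genes and both pairs at 2222 genes. Of the 2222 genes, 2221 had the same direction in both pairs, 1825 higher and 396 lower in delta cells, and the differences of the 2 pairs correlated across all genes at Pearson's r = 0.913. A set of 29 genes was at least 2.5 lower on the log2 scale in the male pair and above -1 in the female pair, 15 of them on the acinar marker list, where beta replicate 1 had the largest sum. The pairs share no library, but genes are not independent replicates and the r is a description. Without delta replicate 1 the calls were 2315 higher and 943 lower, and without delta replicate 2 they were 3190 higher and 1078 lower.

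**Figure D1:**
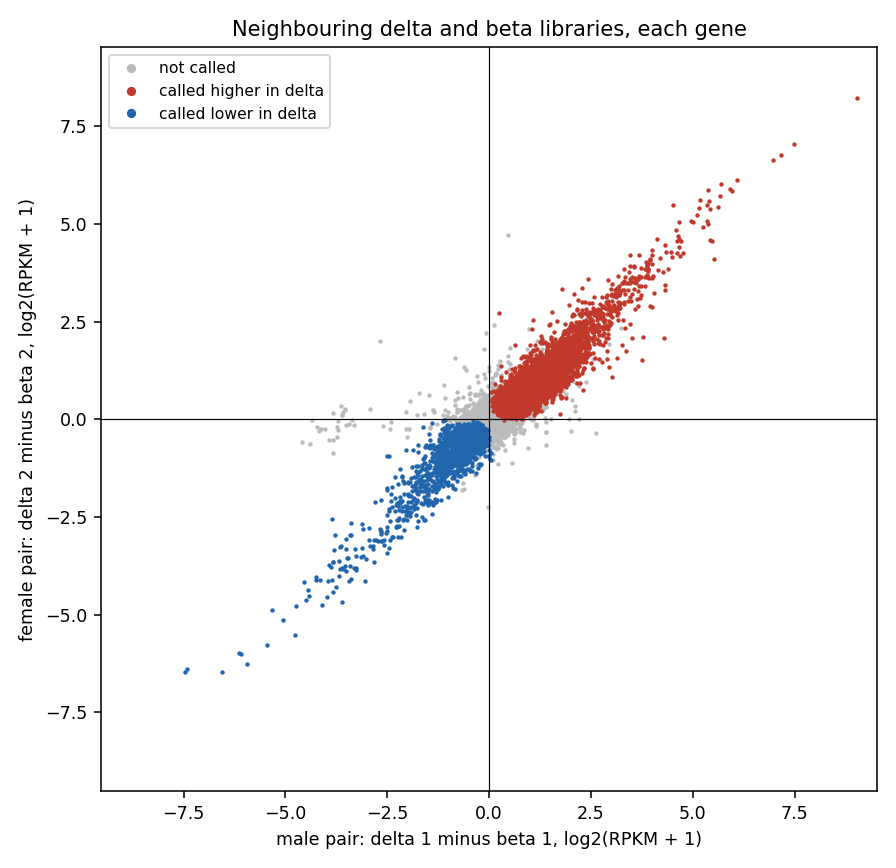
Each point is 1 of 12373 genes, with the difference between delta replicate 1 and beta replicate 1 (male) on the horizontal axis and between delta replicate 2 and beta replicate 2 (female) on the vertical axis, both in log2(RPKM + 1). Of the 2222 genes at or beyond 2-fold in both pairs, all but 1 lie in the lower left or upper right quadrant, and the strip at the left near 0 on the vertical axis holds the 29 genes that include 15 acinar markers.

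Genes higher in delta than in beta cells were set beside their alpha means, without a test. Of the 1547 genes at least 2-fold higher, 1335 (86.3%) had a larger mean in delta than in alpha cells, and for 784 the alpha mean was at least 2 times the beta mean. Among the 128 genes higher by 8-fold or more, 116 had a larger mean in delta than in alpha cells and 103 an alpha mean at least 2 times the beta mean. When the alpha share set by Gcg was subtracted from the delta values, 1497 of the 1547 and 489 of the 489 stayed called in their direction. The subtraction can only lower delta values, so the direction of the 489 lower genes was fixed in advance and their count is no check. Ttr, an alpha cell gene that encodes transthyretin, changed sign from 1.65 to -1.66. Of the 489 genes at least 2-fold lower in delta than in beta cells, 466 (95.3%) had an alpha mean under the beta mean. Slc30a8, Slc38a4, Vgf and Ror2 had higher means in alpha than in beta cells although called lower in delta cells. In bulk samples, fewer cells of a type and less RNA per cell cannot be told apart.

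**Figure D2:**
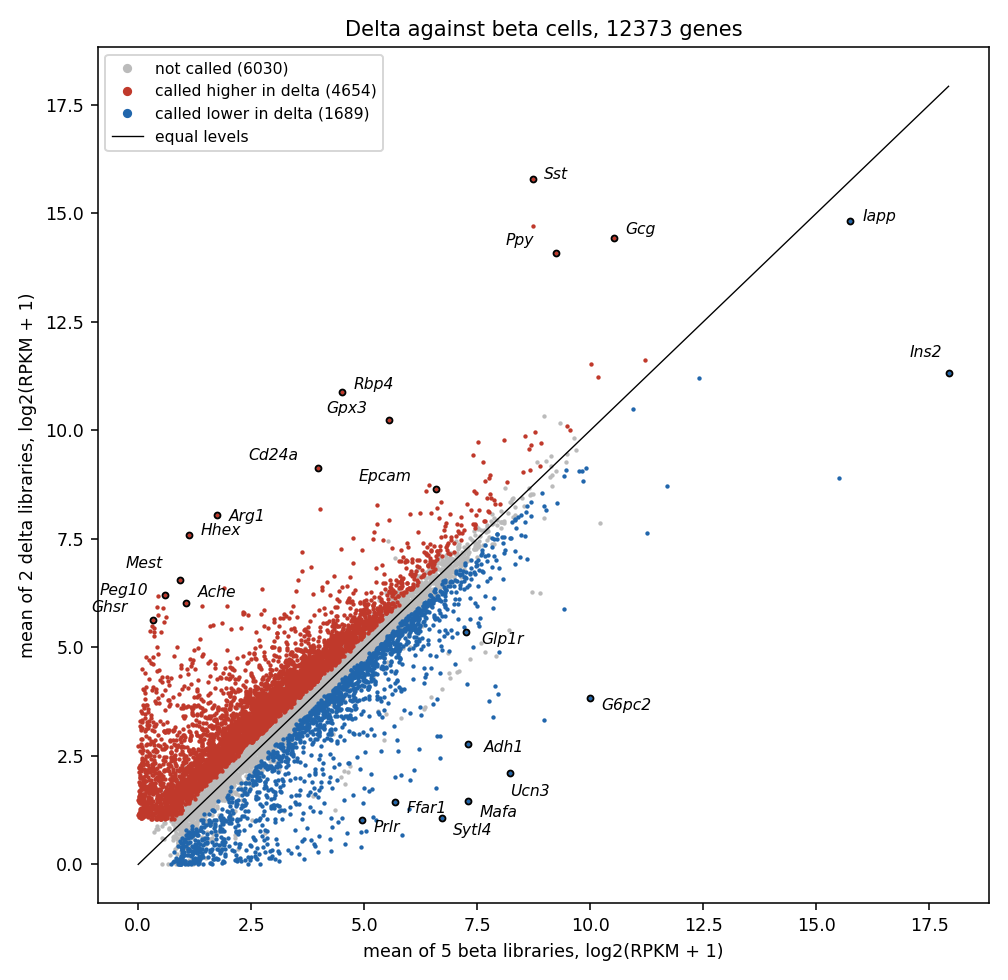
Each point is 1 of 12373 genes, placed by its mean over 5 beta libraries (horizontal) and 2 delta libraries (vertical) in log2(RPKM + 1), and coloured by the limma call. Sst, Rbp4 and Arg1 lie far above the line of equal levels and Ins2, G6pc2 and Mafa far below it, while Iapp lies near it at a high level in both.

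Genes with large differences on the delta side had a range of known roles. Mest, an imprinted hydrolase gene (chromosome 6, 30723547 to 30748465), was listed at 87.7 and 99.2 RPKM in delta and 0.467, 0.693, 0.568, 0.837 and 1.92 RPKM in beta cells, a difference of 5.71 ± 0.26 (adjusted p = 2.55e-07). Cd24a, which encodes a small sialylated surface glycoprotein (chromosome 10, 43578284 to 43584265), had 567 and 557 RPKM against 10.2, 9.53, 14.5, 19.8 and 20.0 RPKM, a difference of 5.23 ± 0.31 (adjusted p = 1.33e-06), and its alpha mean of 11.5 RPKM was near that of beta cells. No beta library reached a delta value for either gene. Dpp6, an auxiliary subunit of Kv4 potassium channels, had 50.3 and 55.4 RPKM in delta cells and 0.261 to 0.525 RPKM in beta cells. Ly6h, which encodes a GPI-anchored protein that binds nicotinic receptors, had 46.4 and 73.2 RPKM in delta and 0.139 to 0.767 RPKM in beta cells. The growth-cone gene Gap43 and the progenitor factor Neurog3 had delta means of 71.4 and 59.2 RPKM and beta means of 0.36 and 0.452 RPKM.

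Large differences on the beta side included an enzyme of glucose handling and a granule protein. G6pc2, the islet glucose-6-phosphatase (chromosome 2, 69211073 to 69227841), had 11.6 and 14.8 RPKM in delta and 859.8, 1022, 943, 1152 and 1106 RPKM in beta cells, a difference of -6.14 ± 0.11 (adjusted p = 4.47e-09). Sytl4, which encodes the granule protein granuphilin (chromosome X, 133936385 to 133981812), had 0.943 and 1.26 RPKM against 84.8, 122, 94.4, 109.7 and 108 RPKM, a difference of -5.61 ± 0.10 (adjusted p = 4.47e-09). Prss53, a serine protease gene, had 7.0 and 11.1 RPKM in delta and 346 to 756 RPKM in beta cells. These 3 genes were also low in alpha cells, at means of 26, 1.04 and 4.36 RPKM. Tmem215, a transmembrane protein gene, had 0.399 and 0.818 RPKM in delta and 45.6 to 63.6 RPKM in beta cells, and the matrix gene Emilin1 had 0.643 and 0.777 and 24.6 to 47.2 RPKM.

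Some genes were on in 1 cell type and at the floor in the other. At 5 RPKM or more in both delta libraries and under 0.1 RPKM in each beta library stood 8 genes: Masp1, Fam196b, Nup62cl, Hgf, Bmp6, Ankrd34b, Myo7b and Add2. Masp1, a protease of the lectin pathway of complement, had 8.7 and 9.16 RPKM in delta and 0.0139 to 0.0409 RPKM in beta cells. Hgf, the hepatocyte growth factor, had 7.02 and 5.91 RPKM in delta and 0.0314 to 0.0563 RPKM in beta cells. Add2, the cytoskeletal protein beta-adducin, was the 1 gene of the 8 with an alpha mean above 1 RPKM, at 2.04 RPKM. In the other direction the rule found 1 gene, Mlph, which encodes the Rab27 effector melanophilin, with 0.0883 and 0.0961 RPKM in delta and 5.92 to 8.58 RPKM in beta cells. The rule needs 5 RPKM in 2 libraries for the 8 genes and in 5 libraries for Mlph. The counts of the 2 directions are therefore not on equal terms.

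Receptors for peptides and hormones divided between the cell types. Of 63 listed genes 26 were tested, of which 15 were higher and 9 lower in delta cells. The shares over all genes tested were 37.6% higher and 13.7% lower, and are the comparison for the main counts of every list that follows. Counts in brackets come from other settings, with other shares over all genes. These were 25.4% higher and 24.8% lower under median-ratio scaling. Of the 12373 genes, 5762 were higher and 1599 lower against the neighbouring beta libraries alone, and 3737 and 2194 after subtraction of the alpha share. With either delta library left out, fewer genes were called each way, as given above. Ghsr, the ghrelin receptor, had 50.2 and 46.7 RPKM in delta and 0.0430, 0.111, 0.216, 0.233 and 0.71 RPKM in beta cells, a difference of 5.31 ± 0.23 (adjusted p = 2.04e-07). Sstr1, a somatostatin receptor, had 16 and 20.5 RPKM in delta and 0.0591, 0.169, 0.0873, 0.122 and 0.475 RPKM in beta cells, a difference of 4.06 ± 0.12 (adjusted p = 3.73e-08). Delta values of both genes lay far above those of each beta library, among which beta replicate 5 was the highest. Crhr2, the receptor for urocortin 3, had 4.67 and 5.61 RPKM in delta and at most 0.0574 RPKM in beta cells. The oxytocin receptor Oxtr had a delta mean of 27.6 RPKM and a beta mean of 1.7 RPKM, with 49.5 RPKM in alpha cells. Avpr1b, a vasopressin receptor named after its values were seen, had 3.57 and 4.62 RPKM in delta and 0.0368 to 0.65 RPKM in beta cells. Its alpha mean was 42.4 RPKM, and after subtraction of the alpha share the difference of 2.01 became 0.11 (adjusted p = 0.641).

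Beta cells held more transcript of the prolactin, galanin and GLP-1 receptors. Prlr had 1.01 and 1.03 RPKM in delta and 18.3, 28.5, 24.3, 44.4 and 34.9 RPKM in beta cells, a difference of -3.85 ± 0.23 (adjusted p = 1.51e-06). Galr1 had 0.207 and 0.188 and 7.23 to 10.8 RPKM. Glp1r, the most abundant receptor of the list in beta cells at a mean of 151 ± 38.2 RPKM (SD, n = 5), still had 35.5 and 44.3 RPKM in delta cells, a difference of -1.82 ± 0.18 (adjusted p = 3.66e-05). Its alpha mean was 2.47 RPKM, so delta cells stood between the other types. Sstr3 was level, with 40.6 and 44.8 RPKM in delta and 42.6, 51.9, 43, 39.6 and 41.7 RPKM in beta cells and a 95% interval of the difference from -0.29 to 0.23. The growth hormone receptor Ghr led the list in delta cells at 75.4 and 68 RPKM against 33.3 to 62.5 RPKM, but its call (adjusted p = 0.0395) was lost in 13 of 22 settings, among them median-ratio scaling (adjusted p = 0.103) and without delta replicate 1 (adjusted p = 0.297) or delta replicate 2 (adjusted p = 0.0819).

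Receptors for transmitters and metabolites included 2 long-chain fatty acid receptors that differed in opposite directions. Ffar4, also known as GPR120, had 57.7 and 64.1 RPKM in delta and 1.23, 1.76, 4.29, 2.26 and 4.98 RPKM in beta cells, a difference of 4.09 ± 0.35 (adjusted p = 1.53e-05). Ffar1, also known as GPR40, had 2.08 and 1.37 RPKM in delta and 36.4, 59.5, 46.8, 53.5 and 55 RPKM in beta cells, a difference of -4.21 ± 0.18 (adjusted p = 1.78e-07). Each was the most abundant member of the list in its cell type. Ffar3, a receptor for short-chain fatty acids, was lower in delta cells at 0.426 and 0.199 against 5.03 to 6.55 RPKM. Of 26 tested members of 78 listed, 13 were higher and 9 lower (7 and 9 without delta replicate 1 and 7 and 9 without delta replicate 2). Chrm4, an inhibitory muscarinic receptor, was higher at 20.8 and 23.3 against 1.65 to 2.49 RPKM, as was the calcium-sensing receptor Casr (named after its values were seen) at 43.1 and 43.8 against 9.63 to 18.6 RPKM. Gabbr2, a subunit of the GABA-B receptor, had 0.557 and 0.795 RPKM in delta and 16.7 to 40.5 RPKM in beta cells. Among adenosine receptors, Adora3 was lower in delta cells at 0.253 and 0.21 against 6.54 to 9.46 RPKM, while Adora1 had 6.96 and 9.11 and 6.64 to 9.21 RPKM with a 95% interval from -0.36 to 0.33.

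**Figure D3:**
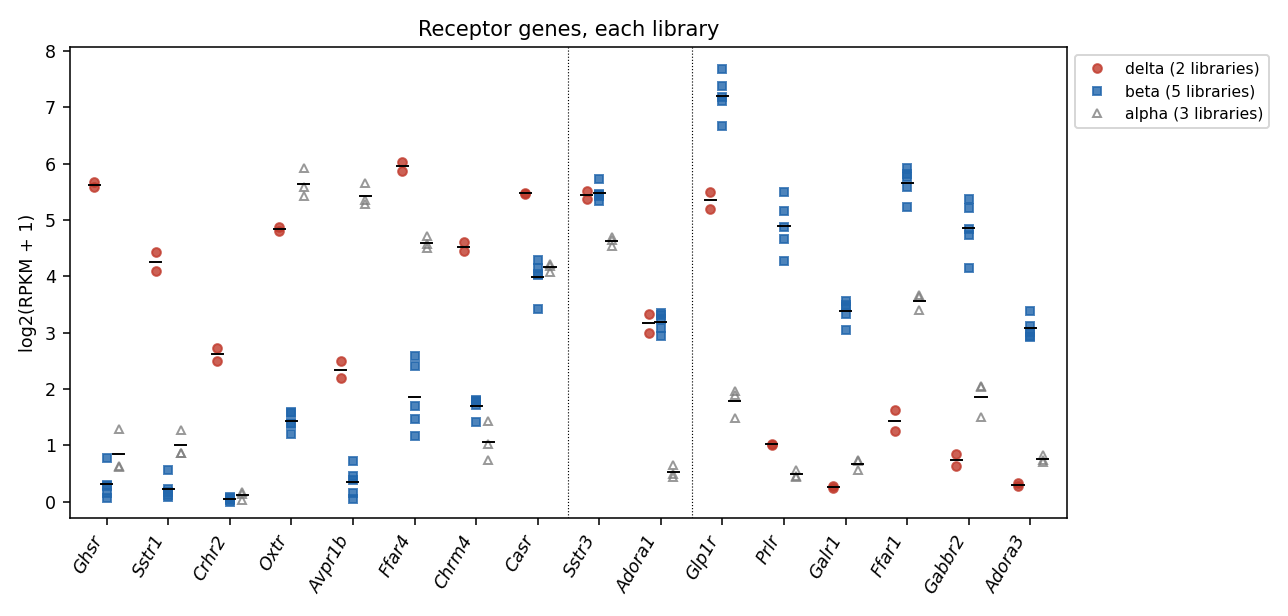
Points are single libraries (2 delta, 5 beta, 3 alpha) and black bars the means of these log values, in log2(RPKM + 1), for 16 receptor genes. The 8 genes on the left are higher in delta cells, Sstr3 and Adora1 in the middle overlap, and the 6 genes on the right are higher in beta cells; Oxtr and Avpr1b are highest in alpha cells.

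Genes of G protein signalling were called in both directions. Of 60 tested members of 87 listed G protein subunits, cyclases, phosphodiesterases and RGS proteins, 30 were higher and 10 lower (23 and 6 without delta replicate 2). Gnas, the stimulatory alpha subunit, was the most abundant in delta cells with 646 and 733 RPKM against 146, 178, 168, 177 and 171 RPKM, a difference of 2.05 ± 0.09 (adjusted p = 2.03e-07). Its alpha mean was 771 RPKM, above the delta mean of 689 RPKM. Its locus is imprinted and carries overlapping and antisense transcripts, which a library without strand cannot separate. Adcy8, a calcium-stimulated adenylyl cyclase, had 7.47 and 7.36 RPKM in delta and 0.0378 to 0.164 RPKM in beta cells. Pde2a was higher in delta cells at 6.56 and 8.11 against 0.30 to 0.694 RPKM and Pde5a lower at 1.78 and 1.54 against 12.3 to 20.1 RPKM, so the 2 phosphodiesterase genes differed in opposite directions. Rgs9, which speeds the shut-off of inhibitory G proteins, was higher at 66.5 and 55.5 against 6.59 to 13.9 RPKM. Rgs4 had 111 and 92.3 and 86.4 to 140.1 RPKM and did not pass the test (adjusted p = 0.848).

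Secreted products divided between the cell types. The list of secreted peptides, which includes the islet hormones, had 40 tested members of 67, with 16 higher, 14 lower and a median difference of -0.09. Rbp4, the plasma retinol carrier, had 1788 and 1963 RPKM in delta and 9.06 to 40.4 RPKM in beta cells, with an alpha mean of 342 RPKM. Gdf15, a stress-induced TGF-beta family cytokine, had 42.5 and 58.8 RPKM in delta and 7.17 to 13.2 RPKM in beta cells. Iapp, which encodes amylin, had 29094 and 28799 RPKM in delta and 51614 to 63052 RPKM in beta cells, a difference of -0.95 ± 0.20 (adjusted p = 0.00432). This call was lost without delta replicate 1 (adjusted p = 0.0689), with no filter on low values (adjusted p = 0.519) and with the 2 delta and 2 neighbouring beta libraries only (adjusted p = 0.126). The delta mean of Iapp was 0.522 of the beta mean, whereas that of Ins2 was 0.0103. Among granins, Chgb was higher in delta cells at 2538 and 2257 against 912 to 1334 RPKM, and Chga was lower at 2094 and 2664 against 4624 to 6832 RPKM. Vgf was lower too, at 46.7 and 52.8 against 115 to 216 RPKM.

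Processing and release machinery differed by isoform. In the list of prohormone processing genes and granins, 33 of 37 were tested, with 11 higher and 10 lower (4 and 10 under median-ratio scaling, 5 and 7 without delta replicate 1, 5 and 7 without delta replicate 2 and 6 and 10 after subtraction of the alpha share). Pcsk1, a convertase that cleaves proinsulin, was lower in delta cells at 30.1 and 27.4 against 177 to 304 RPKM. Ero1lb, an oxidase that supports disulfide formation in proinsulin, was lower at 13.7 and 14.6 against 202 to 333 RPKM. Sorcs2, a sorting receptor that binds proneurotrophins, was higher at 37.5 and 41.9 against 0.20 to 0.884 RPKM. The disulfide isomerase gene P4hb was level, at 581 and 569 and 460.2 to 663 RPKM with a 95% interval from -0.28 to 0.37.

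Among 68 tested granule fusion proteins of 85 listed, 32 were higher and 11 lower (25 and 20 under median-ratio scaling, 19 and 6 without delta replicate 1 and 24 and 7 without delta replicate 2). Stxbp5l, also called tomosyn-2, a brake on SNARE assembly, had 64.5 and 57.5 RPKM in delta and 0.487, 1.46, 1.48, 1.94 and 2.81 RPKM in beta cells, a difference of 4.65 ± 0.25 (adjusted p = 8.23e-07). Syt1, the fast calcium sensor of neuronal vesicles, had 25.6 and 21.1 RPKM in delta and 0.174 to 0.404 RPKM in beta cells, and its relative Syt6 had 3.25 and 3.48 RPKM against at most 0.0353 RPKM. The most abundant synaptotagmin in both cell types was Syt13, which was lower in delta cells at 236 and 234 against 334 to 426 RPKM. Lower in delta cells were also the priming factor Cadps at 4.82 and 5.19 against 22.4 to 36 RPKM and the active-zone gene Rims3 at 3.55 and 3.69 against 23.5 to 39.3 RPKM. Core genes did not pass the test: Snap25 had 78.9 and 79.9 RPKM in delta and 47.2 to 106 RPKM in beta cells, and Rab27a had 99 and 97.6 and 71.7 to 110.4 RPKM. Against the neighbouring beta libraries alone, Snap25 was called higher by 0.55 (adjusted p = 0.00705), in 1 of the 2 settings of 22 that called it.

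Transcription factors included genes at similar levels in both types and genes nearly absent from 1 of them. Of 39 tested homeobox factors of 61 listed, 23 were higher and 5 lower (15 and 5 without delta replicate 1 and 19 and 3 without delta replicate 2). Mnx1, a beta cell fate factor, had 0.0680 and 0.111 RPKM in delta and 10.3 to 14 RPKM in beta cells, and Nkx6-1 had 6.7 and 6.87 and 79.4 to 132 RPKM. Pdx1 did not pass the test on the deposited scale, with 70.0 and 78.2 RPKM in delta and 86, 121, 85.6, 98.8 and 93 RPKM in beta cells, a difference of -0.36 ± 0.18 (adjusted p = 0.113, and 0.0276 under median-ratio scaling, 1 of the 3 settings of 22 that called it lower). Both delta values of Pdx1 lay below each beta value, and the alpha mean was 3.84 RPKM. Pax6 stood at 127 and 121 and 71.2 to 113 RPKM (adjusted p = 0.0643, and 0.00655 against the neighbouring beta libraries, 1 of the 4 settings of 22 that called it higher). The alpha cell factors Irx1 and Irx2 had delta means of 7.37 and 9.68 RPKM, beta means of 0.486 and 1.06 RPKM and alpha means of 59 and 62.8 RPKM. They remained called after subtraction of the alpha share, at 1.14 and 1.36.

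In the list of bHLH factors and the Notch pathway, 30 of 43 were tested, with 20 higher and 2 lower (18 and 6 under median-ratio scaling, 13 and 1 without delta replicate 1 and 17 and 5 after subtraction of the alpha share). Neurog3 had 58.8 and 59.7 RPKM in delta and 0.421, 0.266, 0.658, 0.307 and 0.608 RPKM in beta cells, a difference of 5.37 ± 0.20 (adjusted p = 8.03e-08). Dlk1, a non-canonical Notch ligand, was higher at 21.8 and 26.3 against 0.721 to 3.69 RPKM, and the Notch ligand Jag2 was lower at 1.53 and 1.53 against 7.02 to 8.7 RPKM. Neurod1, a bHLH factor of all islet endocrine cells, had 57.6 and 51.8 and 48.8 to 105 RPKM (adjusted p = 0.212, and 0.0162 under median-ratio scaling, where it was lower in delta cells). Id1 was higher by 1.87, but its alpha mean was 66.3 RPKM and the difference was 0.52 (adjusted p = 0.154) after subtraction of the alpha share.

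Nuclear receptors, with 29 of 47 tested, had 13 higher and 8 lower (9 and 4 without delta replicate 1). Hnf4a, a factor mutated in a monogenic diabetes, was higher in delta cells at 24.2 and 26.5 against 7.02 to 10.5 RPKM, and Nr5a2 was higher at 3.03 and 2.23 against 0.0198 to 0.0876 RPKM. Nr4a1, an immediate-early gene, was higher but uneven, at 71 and 29.5 against 6.05 to 11.1 RPKM. Lower in delta cells were the lipid-sensing Pparg at 2.52 and 2.06 against 13.3 to 17.1 RPKM and Nr1h3 at 1.29 and 0.926 against 4.18 to 7.0 RPKM, and the vitamin D receptor Vdr at 11 and 14 against 34.5 to 58 RPKM.

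Excitability genes differed widely while the ATP-sensitive channel was present in both types. Abcc8, its sulfonylurea receptor subunit, had 463 and 538 RPKM in delta and 182, 268, 200.4, 208 and 231 RPKM in beta cells, a difference of 1.23 ± 0.11 (adjusted p = 1.76e-05). Of 41 tested potassium channel genes of 87 listed, 26 were higher and 9 lower, with a median difference of 0.83. The voltage-gated genes Kcna5 and Kcnc2 had delta values of 15.1 and 15.7 and of 15.5 and 14.1 RPKM and beta values of at most 0.20 and 0.532 RPKM. The inward rectifier gene Kcnj4 was higher at 8.67 and 8.01 against 0.0951 to 0.296 RPKM, and the ether-a-go-go gene Kcnh1 was lower at 0.714 and 0.761 against 8.7 to 11 RPKM. Kcnma1, the big-conductance calcium-activated channel, had a delta mean of 11.3 RPKM and a beta mean of 11.3 RPKM (adjusted p = 0.807).

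Of 45 tested calcium, sodium and other channel genes of 86 listed, 31 were higher and 6 lower. Cacna1h, a low-voltage-activated T-type calcium channel, had 26.6 and 23.6 RPKM in delta and 0.0973, 0.164, 0.164, 0.173 and 0.314 RPKM in beta cells, a difference of 4.47 ± 0.11 (adjusted p = 2.17e-08). The auxiliary subunits Cacna2d2 and Cacna2d3 had delta means of 23.8 and 10.3 RPKM and beta means of 0.223 and 0.0654 RPKM. Scn3b, a sodium channel beta subunit, was higher at 16.7 and 18 against 0.207 to 0.76 RPKM, and the acid-sensing channel Asic2 at 12 and 13.4 against 0.238 to 0.366 RPKM. Trpm5, a calcium-activated cation channel, was lower at 0.305 and 0.381 against 17.4, 16.4, 12.1, 13.9 and 10.8 RPKM. Cacna1d, an L-type channel, did not pass the test, with 18.3 and 16.5 RPKM in delta and 11.1 to 24.5 RPKM in beta cells.

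Calcium stores and calcium binding proteins had 56 of 71 members tested, with 26 higher and 8 lower (20 and 14 under median-ratio scaling and 17 and 7 without delta replicate 1). Itpr1, an inositol trisphosphate receptor, was higher at 79.1 and 81.4 against 3.03 to 7.87 RPKM, and the buffer Calb1 at 25.9 and 33.5 against 0.811 to 1.88 RPKM. Atp2a2, the reticulum calcium pump, was lower at 128 and 132 against 311 to 465 RPKM.

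For transmitters, 21 of 72 listed ionotropic receptor and synthesis genes were tested, with 9 higher and 7 lower. Ache, acetylcholinesterase, was the most abundant of them in delta cells at 57.4 and 71.7 RPKM against 1.55, 0.611, 1.43, 1.13 and 0.729 RPKM, a difference of 4.98 ± 0.22 (adjusted p = 2.04e-07). The glutamate receptor subunit Gria2 was higher in delta than in beta cells, at 13.3 and 9.85 against 0.227 to 0.982 RPKM. Its alpha mean of 21.6 RPKM was higher still. Gad1, which makes GABA, had 0.26 and 0.40 RPKM in delta and 26.8 to 33.5 RPKM in beta cells. Ddc and Maob, which make and break down monoamines, had delta means of 16.9 and 13.1 RPKM and beta means of 154 and 96.1 RPKM. Th, tyrosine hydroxylase, was found in both at 18.7 and 17.1 and 11.3 to 19.8 RPKM (adjusted p = 0.473), with an alpha mean of 0.558 RPKM.

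Most of the tested guidance and adhesion genes were higher in delta cells. The list of axon guidance ligands and receptors had 42 of 81 members tested, with 33 higher, 2 lower (29 and 1 without delta replicate 2) and a median difference of 1.12, and in 28 of the 33 higher the delta mean was also above the alpha mean. Efnb3, an ephrin ligand, had 41.2 and 53.2 RPKM in delta and 0.19, 0.267, 0.596, 0.522 and 0.874 RPKM in beta cells, a difference of 5.04 ± 0.18 (adjusted p = 7.55e-08). The ephrin receptor Ephb2 was higher at 14.9 and 13.7 against 0.707 to 1.07 RPKM, the semaphorin Sema3e at 19.8 and 17.6 against 0.178 to 1.37 RPKM and the semaphorin co-receptor Nrp2 at 10.1 and 14.2 against 0.225 to 0.424 RPKM. Unc5c, a netrin receptor, was higher at 19.5 and 19.4 against 0.451 to 1.42 RPKM. Robo1, a slit receptor named after its values were seen, was the larger of the 2 exceptions, at 0.294 and 0.228 RPKM in delta and 4.84, 8.96, 8.96, 9.59 and 12.1 RPKM in beta cells.

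Of 83 tested adhesion and junction genes of 163 listed, 53 were higher and 6 lower (44 and 12 under median-ratio scaling). Ptprz1, a receptor phosphatase that binds contactins, had 43.6 and 44.7 RPKM in delta and 0.0425, 0.101, 0.209, 0.267 and 0.553 RPKM in beta cells, a difference of 5.21 ± 0.19 (adjusted p = 7.96e-08). The neural adhesion gene Ncam2 was higher at 42.8 and 37 against 0.0681 to 0.651 RPKM, the protocadherin Pcdh15 at 17 and 18.2 against 0.181 to 0.977 RPKM and the tight junction gene Cldn6 at 44.5 and 47.4 against 2.05 to 3.81 RPKM. Epcam, the epithelial adhesion molecule (named after its values were seen), was abundant in both at 413 and 389 against 81.1 to 106 RPKM. The matrix and integrin list had 50 of 166 members tested, with 29 higher and 11 lower. Spock3, a testican proteoglycan, was higher at 16.5 and 24.3 against 0.0116 to 0.297 RPKM, while its relative Spock2 was lower at 60.3 and 65.5 against 113 to 171 RPKM. Itgb1 was higher at 138 and 131 against 40.2 to 73.5 RPKM.

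Among growth factor genes, most tested members of the BMP branch were higher in delta cells. Of 65 listed genes of the BMP, activin and TGF-beta pathway 29 were tested, and 25 were higher and 2 lower in delta cells (16 and 2 without delta replicate 1). Bmp3, a ligand that opposes other BMPs, had 40.0 and 44.8 RPKM in delta and 0.196, 0.21, 0.362, 0.166 and 0.458 RPKM in beta cells, a difference of 5.09 ± 0.21 (adjusted p = 1.53e-07). Bmp6 had 7.12 and 5.76 RPKM in delta and 0.0316, 0.0679, 0.0935, 0.0893 and 0.0311 RPKM in beta cells, a difference of 2.79 ± 0.10 (adjusted p = 8.03e-08). An antagonist was higher beside the ligands: Bambi, a decoy receptor, stood at 23.3 and 25.6 against 2.64 to 3.58 RPKM. Fstl5, a follistatin-like gene, had 11.9 and 11.7 against 0.0539 to 0.139 RPKM.

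Wnt genes went both ways, with 30 of 63 tested, 16 higher and 7 lower. Wnt4, a Wnt ligand, was lower in delta cells at 17.9 and 26.3 against 97.8, 89.5, 79, 69 and 57 RPKM, as was the Wnt carrier Wls at 37.3 and 40.9 against 109 to 168 RPKM and the receptor Ror2 at 1.26 and 1.22 against 8.07 to 10.2 RPKM. Wnt9a was higher at 5.59 and 3.6 against 0.321 to 0.661 RPKM, and so was the secreted inhibitor Sfrp5 at 32.7 and 36.8 against 2.76 to 8.31 RPKM, with an alpha mean of 148 RPKM. Growth factors and receptor tyrosine kinases had 43 of 94 tested, with 17 higher and 15 lower. Gfra1, the GDNF co-receptor, was higher at 18.8 and 23.5 against 0.215 to 0.481 RPKM, and the neurotrophin receptor Ntrk2 was lower at 0.853 and 0.786 against 16 to 23.8 RPKM. Egfr was lower at 0.63 and 0.493 against 3.51 to 7.74 RPKM.

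**Figure D4:**
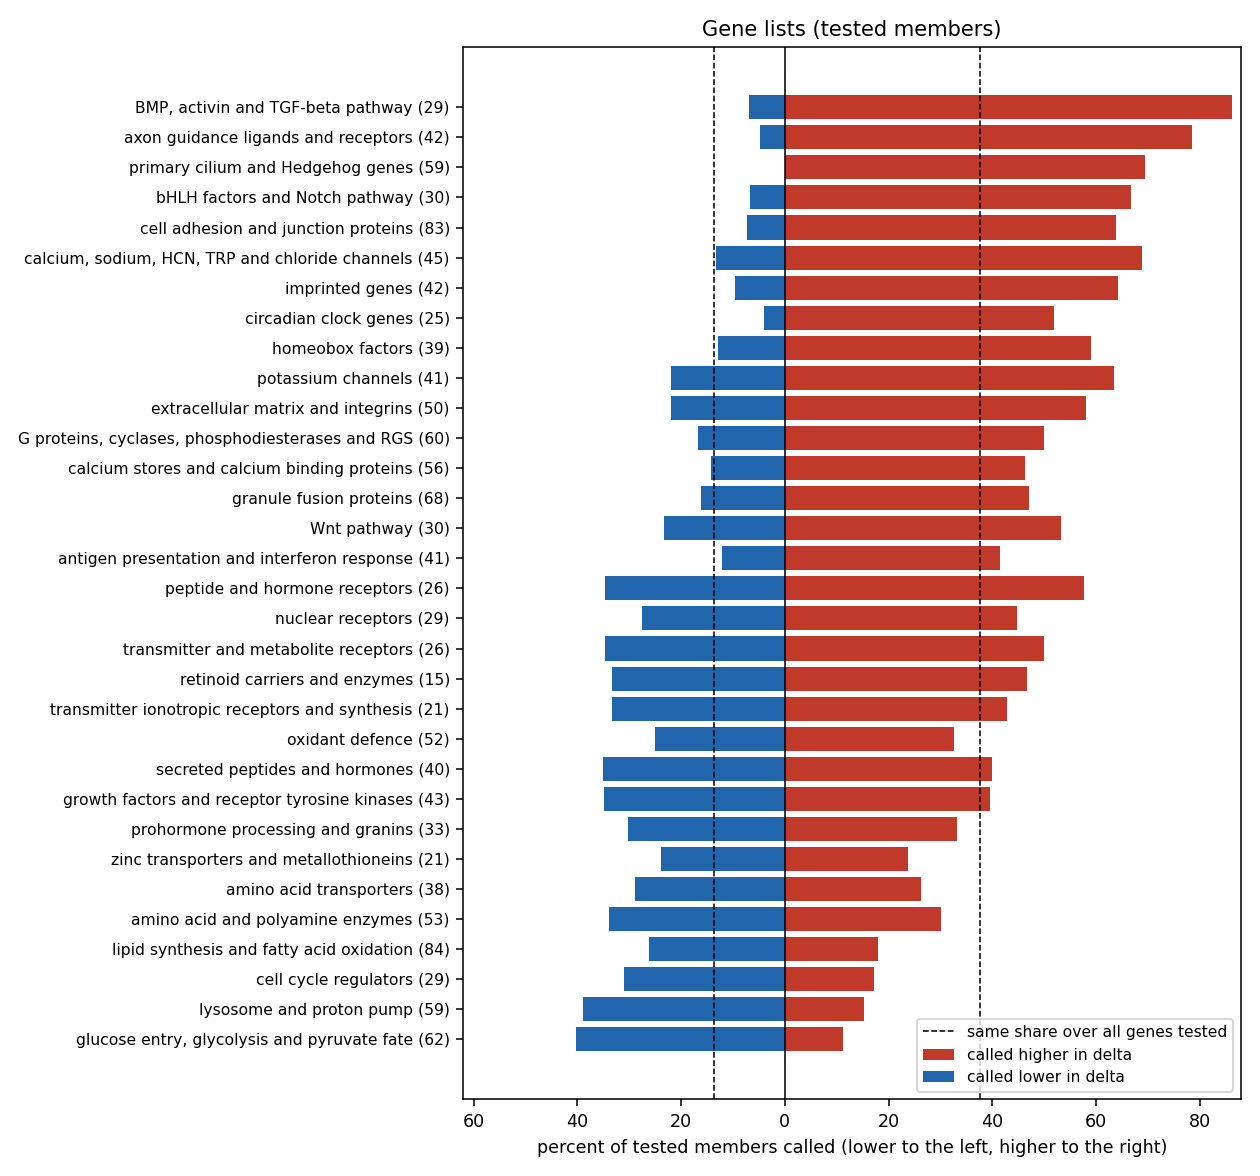
Bars give the percent of tested members of each of 32 gene lists called higher (right) or lower (left) in delta cells, with the number tested in brackets, and dashed lines the same shares over all 12373 genes (37.6% and 13.7%). The BMP, axon guidance and cilium lists lie at the top, and the lysosome and glucose lists at the bottom have more members lower than higher.

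Among genes of glucose metabolism more were called lower than higher in delta cells. The shares over all genes varied with level. Of the 604 genes whose larger mean was at least 100 RPKM, 27.2% were called higher and 29.0% lower. Under 5 RPKM these shares were 43.9% and 11.6% of 2805 genes. The part of level in the counts of this list and of the lysosome list below was not tested. Of 76 listed genes 62 were tested, with 7 higher and 25 lower (5 and 14 without delta replicate 1 and 6 and 12 without delta replicate 2) and a median difference of -0.25. Slc2a2, the GLUT2 transporter, had 2.18 and 2.6 RPKM in delta and 72.4 to 165 RPKM in beta cells, whereas Slc2a3, the neuronal GLUT3, had 5.96 and 5.78 and 0.0674 to 0.227 RPKM. The alpha mean of Slc2a3 was 13.9 RPKM, above its delta mean of 5.87 RPKM. Pcx, pyruvate carboxylase, had 4.17 and 6.06 RPKM in delta and 58, 69.3, 48.1, 45.6 and 42.5 RPKM in beta cells, a difference of -3.12 ± 0.19 (adjusted p = 1.69e-06). Pdk4 and Fbp1, which restrain pyruvate oxidation and serve gluconeogenesis, were higher at 14 and 13 against 0.221 to 1.33 RPKM and at 50.3 and 50.5 against 3.67 to 17.5 RPKM. Both had still higher alpha means, of 113 and 89.3 RPKM.

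Genes of amino acid handling were called in both directions. The enzyme list had 53 of 69 members tested, with 16 higher and 18 lower (11 and 11 without delta replicate 1). Arg1, arginase, had 284 and 244 RPKM in delta and 1.29, 1.44, 2.75, 2.04 and 4.19 RPKM in beta cells, a difference of 6.37 ± 0.30 (adjusted p = 2.84e-07), with an alpha mean of 19.7 RPKM. Cdo1, which oxidises cysteine, was higher at 23.3 and 26.6 against 1.17 to 1.38 RPKM, while Cbs, which feeds cysteine synthesis, was lower at 1.54 and 1.76 against 32, 43.2, 23.9, 30.4 and 22.5 RPKM. The glycine methyltransferase Gnmt was lower at 1.1 and 1.04 against 4.54 to 9.16 RPKM and the glutamine synthetase Glul at 56.6 and 61.7 against 176 to 261 RPKM. Amino acid transporters had 38 of 61 tested, with 10 higher and 11 lower (6 and 14 under median-ratio scaling, 5 and 5 without delta replicate 1 and 9 and 5 without delta replicate 2). Slc38a5 was higher at 11 and 12 against 0.483 to 1.55 RPKM, with 38.3 RPKM in alpha cells, and Slc38a4 was lower at 27.5 and 26.5 against 69.5 to 114 RPKM.

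Lipid genes had 84 of 98 members tested, with 15 higher and 22 lower (8 and 39 under median-ratio scaling, 8 and 11 without delta replicate 1 and 7 and 16 without delta replicate 2). Acly, which makes cytosolic acetyl-CoA and was the most abundant of the list in both types, was lower at 542 and 534 against 752, 1043, 864, 897 and 952 RPKM. The cholesterol synthesis gene Sqle was lower at 40.4 and 46.6 against 119.6 to 178 RPKM and Apoe at 2.41 and 2.24 against 20.5 to 55.8 RPKM. Apoe is also abundant in macrophages. Immune marker sums, which include 1 marker called higher in delta cells, were lower in delta libraries (76.7 and 90.0 against 131 to 255 RPKM). The part of immune RNA in this difference was not tested. Plin3, a lipid droplet coat gene, was higher at 24.6 and 27.6 against 3.0 to 3.99 RPKM. Retinoid genes had 15 of 34 tested, with 7 higher and 5 lower (6 and 3 without delta replicate 1, 5 and 3 without delta replicate 2 and 7 and 3 against the neighbouring beta libraries alone). Adh1, an alcohol dehydrogenase that oxidises retinol, had 6.19 and 5.49 RPKM in delta and 193, 176, 165, 130.1 and 114 RPKM in beta cells, a difference of -4.52 ± 0.16 (adjusted p = 7.55e-08). Aldh1a3, which makes retinoic acid, was called higher at 4.41 and 11 against 0.316 to 3.54 RPKM, but not without delta replicate 2 (adjusted p = 0.259).

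Metal and oxidant genes held some of the most abundant contrasts. The metallothionein genes Mt1 and Mt2, which bind zinc and copper, had 413 and 429 and 200.1 and 194 RPKM in the delta libraries and 2757 to 3628 and 1871 to 2665 RPKM in the beta libraries. Differences were -2.98 ± 0.13 and -3.62 ± 0.15 (adjusted p = 2.04e-07 and 1.43e-07), and the 2 genes are close copies whose reads may be shared. Slc30a8, the granule zinc transporter, was lower at 44.3 and 43.3 against 161 to 209 RPKM. The zinc list as a whole had 21 of 29 tested, with 5 higher and 5 lower (3 and 8 under median-ratio scaling, 3 and 4 without delta replicate 1 and 3 and 4 without delta replicate 2). For oxidant defence 52 of 58 were tested, with 17 higher and 13 lower (11 and 18 under median-ratio scaling, 14 and 7 without delta replicate 1 and 10 and 10 without delta replicate 2). Gpx3, a secreted glutathione peroxidase, had 1216 and 1185 RPKM in delta and 27.5, 48.1, 39.2, 48.2 and 66 RPKM in beta cells, a difference of 4.78 ± 0.21 (adjusted p = 2.03e-07), and its alpha mean of 1635 RPKM was higher still. Glrx, a glutaredoxin, was lower at 2.8 and 1.95 against 28.6 to 35.4 RPKM, and Hmox1, the haem oxygenase, at 36.2 and 25.8 against 110.1 to 235 RPKM.

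**Figure D5:**
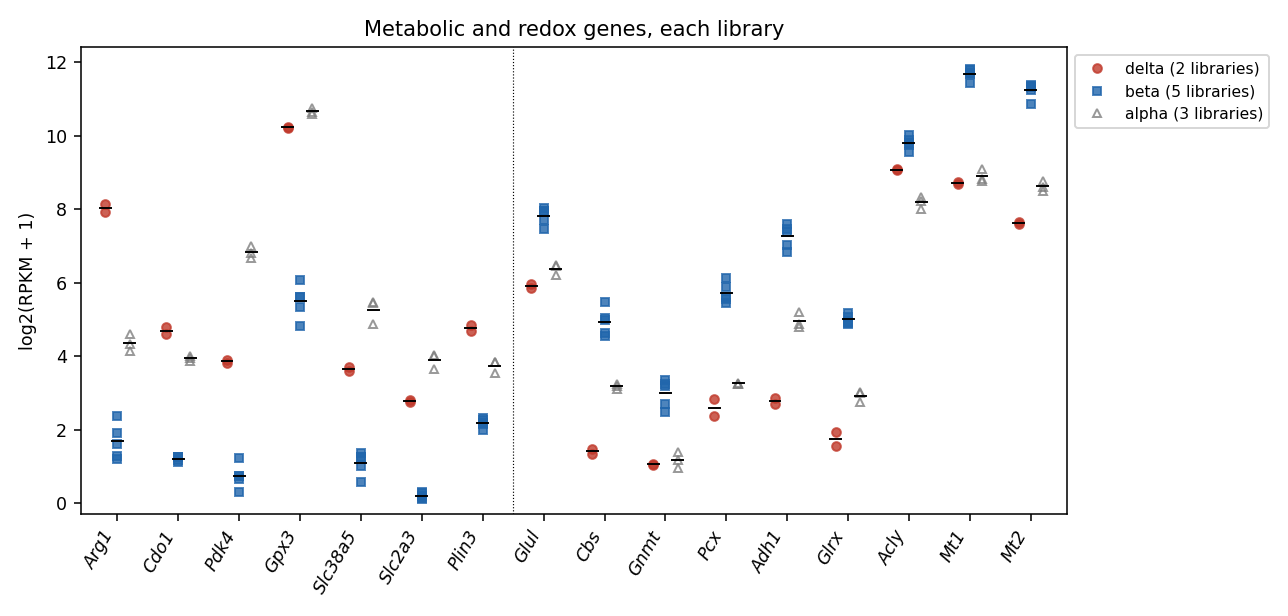
Points are single libraries (2 delta, 5 beta, 3 alpha) and black bars the means of these log values, in log2(RPKM + 1), for 16 metabolic and redox genes. The 7 genes on the left have higher delta values, and the 9 genes on the right are lower in delta cells.

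Imprinted genes, expressed from 1 parental copy, had 42 of 54 members tested, with 27 higher and 4 lower (20 and 1 without delta replicate 1) and a median difference of 0.96. Peg10, derived from a retrotransposon, and its neighbour Sgce, a sarcoglycan gene, stand next to each other on chromosome 6 and were both higher. Peg10 (4747306 to 4760517) had 57.9 and 88.8 RPKM in delta and 0.137, 0.375, 0.363, 0.516 and 1.17 RPKM in beta cells, a difference of 5.66 ± 0.20 (adjusted p = 5.91e-08). Sgce (4674350 to 4747207) had 45.4 and 56.6 and 0.285, 0.175, 0.30, 0.482 and 1.46 RPKM, a difference of 5.15 ± 0.23 (adjusted p = 2.47e-07). Both were also present in alpha cells, at means of 53.4 and 35.1 RPKM, whereas the alpha mean of Mest was 2.43 RPKM. Zim1 was higher at 57.7 and 50.2 against 1.94 to 10.7 RPKM, with an alpha mean of 48.0 RPKM. Meg3, a long noncoding RNA named after its values were seen, was higher at 151 and 94 against 8.44 to 58.7 RPKM but was not called without delta replicate 1 (adjusted p = 0.126).

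Clock genes had 25 of 26 members tested, with 13 higher and 1 lower (11 and 4 under median-ratio scaling, 12 and 0 without delta replicate 2 and 12 and 2 after subtraction of the alpha share). Nr1d1, a repressor of the clock loop, was higher at 42 and 51.3 against 13.8 to 21.9 RPKM, Per3 at 9.36 and 10.4 against 0.918 to 3.78 RPKM and the output factor Hlf at 6.8 and 8.32 against 1.11 to 2.29 RPKM. The labels do not state the hour at which each library was collected. Primary cilium and Hedgehog genes had 59 of 74 tested, with 41 higher and 0 lower (25 and 3 under median-ratio scaling, 19 and 0 without delta replicate 1, 41 and 1 against the neighbouring beta libraries alone and 31 and 3 after subtraction of the alpha share). Ptch1, the Hedgehog receptor, was higher at 16.2 and 17.4 against 3.58 to 7.54 RPKM, the transducer Smo at 2.86 and 2.46 against 0.184 to 0.312 RPKM and Rfx3, a factor for ciliary genes, at 16.7 and 14.1 against 1.73 to 5.87 RPKM. The motor gene Dync2h1 was higher at 13.5 and 13 against 2.38 to 7.15 RPKM, while the small GTPase Arl3 had 78.8 and 84.8 and 69.1 to 85.9 RPKM (adjusted p = 0.551).

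Lysosome and proton pump genes had 59 of 66 tested, with 9 higher and 23 lower (4 and 36 under median-ratio scaling, 4 and 15 without delta replicate 1 and 4 and 17 without delta replicate 2). Ctsh, an aminopeptidase cathepsin, was the largest higher member at 19.7 and 23.1 against 2.86 to 4.36 RPKM. Ctss, a cathepsin of antigen-presenting cells, was lower at 0.255 and 0.198 against 11.8 to 19.7 RPKM, next to the lower immune marker sums whose part was not tested. The calcium-permeable lysosomal channel Mcoln3 was lower at 0.173 and 0.252 against 2.65 to 7.97 RPKM. Antigen presentation and interferon genes had 41 of 45 tested, with 17 higher and 5 lower (10 and 7 under median-ratio scaling, 3 and 4 without delta replicate 1, 8 and 4 without delta replicate 2 and 11 and 6 after subtraction of the alpha share). The class II genes H2-Aa and Cd74, which belong to antigen-presenting cells, had delta means of 0.658 and 3.01 RPKM and beta means of 23.6 and 50.6 RPKM. The class I gene H2-K1 had 684 and 675 and 437 to 672 RPKM (adjusted p = 0.179). Isg15, an interferon target, was called higher at 31.4 and 22.6 against 3.53 to 11.6 RPKM, but not without delta replicate 1 (adjusted p = 0.0610) or delta replicate 2 (adjusted p = 0.0669). Cell cycle regulators had 29 of 46 tested, with 5 higher and 9 lower (2 and 11 under median-ratio scaling, 1 and 3 without delta replicate 1, 2 and 5 without delta replicate 2 and 9 and 9 against the neighbouring beta libraries alone). The S-phase factor E2f1 was lower at 0.447 and 0.521 against 4.4 to 5.65 RPKM, and of the cell cycle inhibitors Cdkn1b was higher at 53.8 and 53.9 against 25.1 to 31.6 RPKM and Cdkn1a lower at 29.5 and 22.1 against 38.3 to 70.0 RPKM.

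A share of genes was measured to be alike. For 3108 genes (25.1%) the 95% interval of the difference lay within 0.5 on the log2 scale in either direction, including 200 of the 1334 tested list members. The most abundant of these members were Scg5, the chaperone of the convertase PC2, with 832 and 973 RPKM in delta and 769, 693, 948, 741 and 822 RPKM in beta cells and an interval from -0.12 to 0.49, and P4hb. Ctsd, a lysosomal protease, had 228 and 274 and 248, 260.5, 241, 217 and 209 RPKM, and the zinc transporter Slc39a7 had 143 and 138 and 164, 177, 131, 137 and 123 RPKM. Against the neighbouring beta libraries alone Slc39a7 was called lower by 0.28 on the log2 scale (adjusted p = 0.0494), the 1 of 22 settings in which it was called. The intervals hold on the deposited scale, which median-ratio scaling shifts by about the median of 0.25.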

How the data were processed

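RNA was sequenced from sorted islet cells (2 delta, 5 beta and 3 alpha libraries), using libraries of the TruSeq kit, version 2, per the labels' protocols, which carry no strand information. The authors deposited 1 table of RPKM values, made with STAR 2.4, featureCounts and edgeR 3.12.0 on GRCm38.p3, per the submitters' processing notes. Which annotation was used, and how reads shared between genes were treated, is not stated there. Of the symbols, 27 read as dates and 2 are repeated. Library totals were recovered from the step size of the low RPKM values. Their range bears on low genes, for which 1 RPKM stood for 17.8 to 26.7 reads per kilobase.

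The RPKM values were taken to log2 after a pseudocount of 1 RPKM was added. This pseudocount understates the change of low genes. The fit used limma 3.58.1 (R 4.3.3) with cell type and sex as terms, a mean-variance trend and all 10 libraries. It was run on simulated data with independent noise for each gene and library. Those data held no scale shift between libraries and no shared pools, so the run cannot test the effect of either on the calls. Benjamini-Hochberg adjustment ran over the 12373 genes, and called means an adjusted p under 0.05. Standard errors follow estimates after ±, and intervals cover 95%. The labels do not say that each library is a separate pool of animals, so the spread behind each p-value may be technical. Median-ratio scaling divides each library by the median ratio to the mean of logs over genes. The alpha share is the delta level of Gcg over the alpha mean, and subtraction removes that share of the alpha mean of each gene. Bracketed pairs after a list's counts give its counts, higher and lower, under those of 5 settings that moved either count by over 1.5 times. The settings were median-ratio scaling, leaving out each delta library, the neighbouring beta libraries alone and the alpha share subtracted.

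The genes compared, the 32 function lists and the 10 marker lists were chosen with earlier results of these data known. Named genes are the 4 marker genes, the 20 called genes of largest difference each way with no overlap of libraries, for each list up to 6 called and 3 uncalled members and the most abundant member, the 10 most abundant genes of each type, the on and off genes, up to 10 members alike in both types, and other cell types' markers. Not all genes so admitted are named, and some results are not reported here. Gene coordinates are from GENCODE M21 on GRCm38.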

Additional observations from a re-analysis of the deposited data

Results flagged for a closer look

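In 16 of 195 sets of beta values examined (8.21%), 1 of the 5 libraries stood apart from the others by a gap over 0.71 of the whole range, which chance alone gives in about 1 in 20 sets. Beta replicate 5 was the highest of the 5 for the delta-high genes Mest (1.92 RPKM), Sgce (1.46), Ly6h (0.767), Ghsr (0.71), Sstr1 (0.475) and Kcna5 (0.200), and for Ppy (934), Pyy (626) and the PP and epsilon marker sum (1560 RPKM). It was the lowest for Chrm4, at 1.65 RPKM. Each of these beta values stays far below the delta values of the same gene, and whether delta or PP cell RNA entered this library was not tested.

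Beta replicate 2 was the highest for Emilin1 (47.2 RPKM), Sstr3 (51.9), Vdr (58.0), Slc2a2 (165) and the stellate and mesenchymal marker sum (6.15), and the lowest for Mt2 (1871 RPKM).

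For 2 genes with no called difference the sexes ran in opposite directions. Cacna1d (difference -0.03) had a male delta value of 18.3 RPKM above the male beta values of 11.1 and 18.2 RPKM, and a female delta value of 16.5 RPKM below the female beta values of 19.7, 19.9 and 24.5 RPKM. Ctsd (difference 0.09) had 228 RPKM in the male delta library, below 248 and 241 RPKM, and 274 RPKM in the female delta library, above 260.5, 217 and 209 RPKM. With 1 delta library per sex the difference between sexes was not tested.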

How the results depend on the processing

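Against 4654 genes higher and 1689 lower, a count moved by more than 1.5 times under 3 kinds of change. Median-ratio scaling gave 3064 lower, and each delta library left out lowered both or 1 of the counts. Over the 10 libraries left out in turn the counts ran from 2315 to 4894 higher and from 943 to 1678 lower, with both minima without delta replicate 1. The cause was not tested, but a single delta library then stands for the type and is assumed to vary like the other groups. The remaining settings, a pseudocount of 0.1 RPKM, no filter, a filter at 5 RPKM, no alpha libraries in the fit, scaling to the RPKM outside 7 hormone genes, neighbouring beta libraries, no sex term, the alpha share subtracted and no trend, gave 3321 to 5762 higher and 1367 to 2194 lower. The 2 delta and 2 neighbouring beta libraries alone, a setting chosen after seeing the data, gave 5760 and 1628. That fit has 1 residual degree of freedom and took the spread of each gene from the mean-variance trend alone. Its calls therefore do not reflect the spread of the single gene and are no check with 4 libraries. It is among the settings that called Snap25, Pax6 and Pdx1. Averaging libraries that share a number, also chosen after seeing the data, gave 4509 and 1619. Subtracting the alpha share turned 4 genes called higher to lower, among them Ttr (-1.66) and Gcg (-10.26), whose value is fixed by construction because Gcg sets the share. The replicate numbers follow the order of deposit and pair no samples. The neighbouring library numbers give a male and a female pair, and in both fits with the neighbouring beta libraries the sex term serves as the block for these pairs. With 2 delta libraries the spread within that type rests on 1 difference, and values under 1 RPKM rest on few reads.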
